A study of Mus musculus with 4 samples.

Results

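The genes described here are 37 genes of fat storage and fat-cell hormones in adipocytes, read in 4T1Ch9 mammary tumors. They were listed by name, and a listed gene counted as measured when a probe set of the array had that gene as its only symbol in the platform annotation. This held for 31 of the 37, out of 17097 genes measured in all. A gene with several probe sets was read from its brightest one on average. Cfd, Plin1, Cidec, Acsl1, Agpat2 and Adrb3 are not reported here. 4T1Ch9 is a cherry-tagged triple-negative breast cancer (TNBC) line of Balb/c origin, and 50000 cells were placed in the mammary fat pad of female wild-type Balb/c mice aged between 6 and 8 weeks. Tumors grew for 10 days, and mice were then dosed for 7 days with vehicle (polyethylene glycol and solutol) or with trametinib, an inhibitor of the kinases MEK1 and MEK2 (MEKi), at 1 mg/kg daily. Each label is carried by 2 arrays of bulk tumor RNA, called MEKi 1, MEKi 2, vehicle 1 and vehicle 2 by their labels. No source used here tells whether arrays that share a label stem from different mice. The p-values therefore cover the spread among these arrays alone, which may differ from the spread among mice.

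White adipocytes hold fat as triglyceride in a lipid droplet that is coated by perilipins and broken down by a series of lipases. They take up fatty acids set free by lipoprotein lipase, make glycerol phosphate from glucose to bind them, and secrete hormones such as adiponectin and leptin. The transcription factors PPARγ and C/EBPα switch this program on, and the mammary fat pad, into which the tumor cells were injected, is rich in such cells.

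The arrays did not group by label over the whole genome. Pearson's r, taken over 45037 probe sets that are no independent replicates, came to 0.992 between MEKi 1 and vehicle 2 and 0.978 between MEKi 2 and vehicle 1, but 0.927 between the MEKi arrays and 0.959 between the vehicle arrays. For 12 MAPK output genes, which are targets and feedback regulators of ERK, median log2 expression reached 9.70 in MEKi 2 and 9.29 in vehicle 1 but 7.61 in MEKi 1 and 8.36 in vehicle 2, so the array labelled MEKi 2 was the highest of the 4. Each array is therefore named by its label, no label was changed, and a difference between labels is not taken as an effect of the drug. Values are log2 expression made with RMA, and where a pair of values is given for a label, array 1 comes first and array 2 after it. The 25th percentile of each array lay between 3.85 and 3.88, and a reading near it is at the floor of what these arrays resolve.

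Most of the adipocyte genes were lower in both arrays labelled MEKi than in both arrays labelled vehicle. This held for 24 of 31 measured genes, where it held for 10.2% of all 17097 genes, and the opposite order held for 0 of 31 against 11.0% of all genes. Among the genes above the dimmest 0.25 of probe sets it held for 22 of 27, against 9.29%. The median level of the 31 genes was 8.32 in vehicle 1 and 8.05 in vehicle 2, and 7.45 in MEKi 1 and 5.99 in MEKi 2, so the vehicle arrays lay close together and the MEKi arrays apart. The full order of vehicle 1, vehicle 2, MEKi 1 and MEKi 2 from high to low was found for 18 of 31 genes and for 3.74% of all genes, an order that was chosen after the values were seen. MEKi 2 was the lowest array for 22 genes, against 27.2% of all genes, and vehicle 1 the highest for 23, against 20.1%. In bulk RNA, fewer adipocytes and less RNA per adipocyte cannot be told apart.

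**Figure D1:**
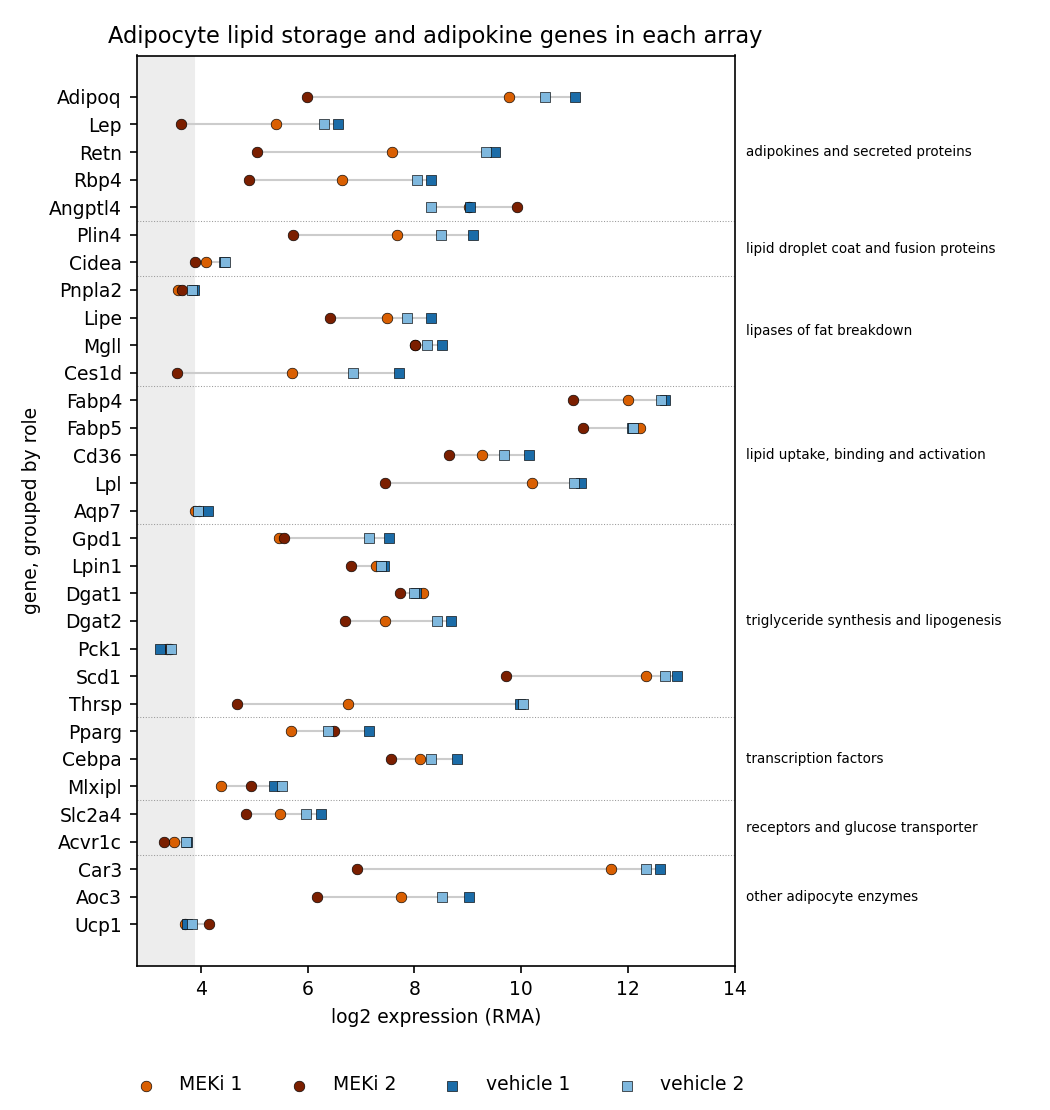
Log2 expression (RMA, horizontal axis) of the 31 measured adipocyte genes (vertical axis, grouped by role), with a circle for each MEKi array and a square for each vehicle array. The grey band reaches up to 3.88, the highest 25th percentile of the arrays. For Adipoq the points run from 5.99 (MEKi 2) to 11.00 (vehicle 1), and for Gpd1 the MEKi arrays lie together at 5.47 and 5.57.

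None of these differences passed the test. The labels were compared in a two-sided limma fit, in which a probe set was called at a fold change above 1.5 with p below 0.05 and a Benjamini-Hochberg adjusted p below 0.1 over all probe sets. Of the 31 genes 0 were called, as were 0% of all probe sets, and no adjusted p lay below 1. Without adjustment, p was below 0.05 for 11 of 31 genes and for 0.901% of all probe sets. The median log2 difference of the 31 genes, MEKi minus vehicle, was −0.95, beside 0.01 for all genes. It was −0.64 without MEKi 2 and −1.27 without MEKi 1. For 11 of the 31 the MEKi arrays lay farther apart than the labels did.

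Many of these genes ranked low by the difference between labels, MEKi minus vehicle. When all 17097 genes were ordered by the difference between labels, Thrsp was the lowest of all, and 5 of the 31 stood among the 20 lowest genes, 12 among the 100 lowest and 18 among the 500 lowest. In MEKi 2, 17 of 31 genes were more than 1 log2 unit below both vehicle arrays, against 3.03% of all genes. In MEKi 1 there were 5 of 31, which were Retn, Rbp4, Ces1d, Gpd1 and Thrsp, against 0.702% of all genes. The MEKi arrays were more than 1 log2 unit apart for 14 of 31 genes (19.9% of all genes), and the vehicle arrays for 0 of 31 (11.7% of all genes).

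**Figure D2:**
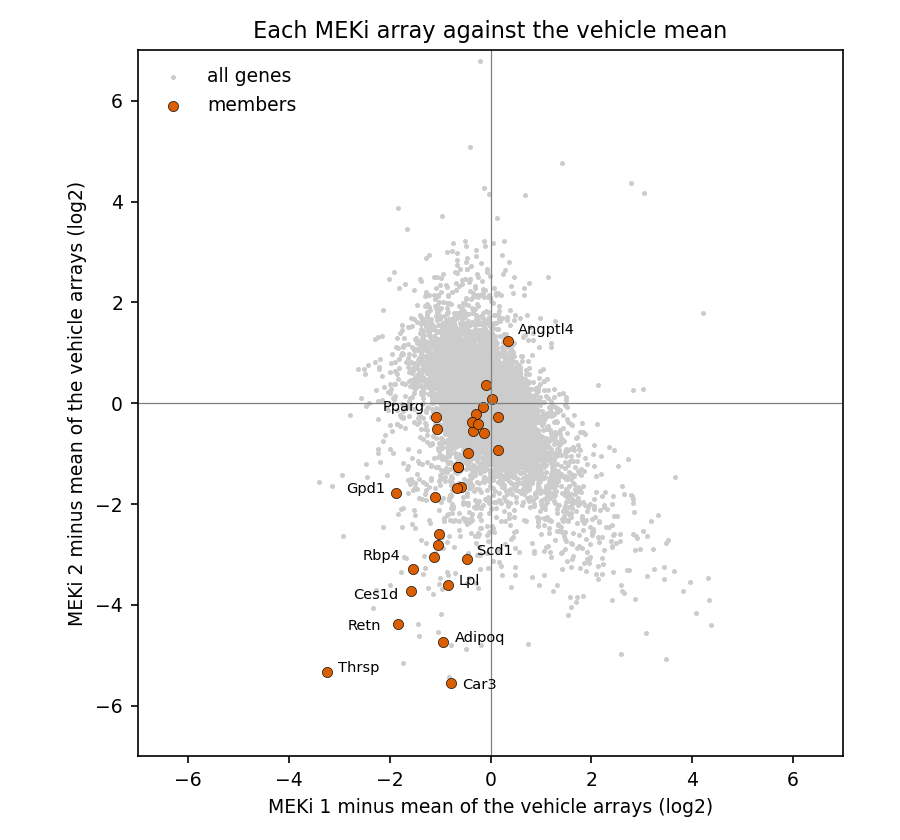
Log2 difference of MEKi 1 (horizontal axis) and of MEKi 2 (vertical axis) from the mean of the vehicle arrays, 1 point per gene, for the 31 adipocyte genes (orange) and all 17097 genes (grey). Both axes use the same vehicle arrays. Most orange points lie in the lower left, with Thrsp at −3.24 and −5.32, and Angptl4 lies in the upper right.

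Other cells that share the tumor also differed between the arrays, and their part in the result was not tested. Of 12 tumor epithelial genes, 7 (58.3%) were lower in both MEKi arrays than in both vehicle arrays. The same held for 10.2% of all genes and for 77.4% of the 31 adipocyte genes. The log2 of the summed level of the epithelial genes was 12.22 to 13.12 in the MEKi arrays and 13.20 to 14.10 in the vehicle arrays. Krt8, an epithelial keratin gene, read 12.92 and 11.75 with vehicle and 10.54 and 12.11 with MEKi, so its lowest array was MEKi 1. Of the 12 genes, 6 were lowest in MEKi 1 and 6 in MEKi 2. Krt19, another keratin gene, was among those lowest in MEKi 2, at 9.36 and 9.42 with vehicle and 8.91 and 4.52 with MEKi. The medians of the epithelial list, 7.76 and 7.64 with vehicle and 7.14 and 6.46 with MEKi, ran in the same order as those of the adipocyte genes. Gene by gene, that order held for 1 of the 12, against 18 of the 31 adipocyte genes and 3.74% of all genes. Because that order was chosen after the adipocyte values were seen, these counts are no fair comparison of the 2 lists. When each array was centred on these epithelial genes, the median difference of all genes, MEKi minus vehicle, moved to 0.91, and 13 of 31 adipocyte genes were lower in both MEKi arrays, against 0.532% of all genes. The median difference of the 31 genes was then −0.053. Under this centring limma called 1 of them, Thrsp, with a log2 difference of −3.38 (adjusted p = 0.00233), beside 0.0444% of all probe sets, of which 19 were higher and 1 lower. The SE was 0.67 for each of the 31 genes in that fit, so the call rests on a spread pooled over probe sets and not on that of Thrsp.

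Immune, vessel and muscle genes were read in the same way, beside the 10.2% of all genes that were lower in both MEKi arrays. Counts of 0 or 1 in lists this short lie close to what that share gives. Of 8 B cell genes, and of 6 genes that mark high endothelial venules and the stroma of lymph nodes, 0 were lower in both MEKi arrays. Ms4a1, the CD20 gene of B cells, was high in MEKi 1 (12.21) and vehicle 2 (11.61) and near the floor in MEKi 2 (3.97) and vehicle 1 (4.15). Of 8 macrophage genes, 1 (Mrc1) was lower in both MEKi arrays, with a log2 summed level of 12.03 to 12.98 in the MEKi arrays and 12.87 to 13.86 in the vehicle arrays. Of 8 blood vessel endothelial genes, Kdr and Tek were lower in both MEKi arrays. For Kdr the margin was too small to read, at 7.9759 and 8.0337 with vehicle and 7.9752 and 7.8906 with MEKi. Tek, an angiopoietin receptor gene, had the full order of the adipocyte genes at 6.93 and 6.85 with vehicle and 6.52 and 6.07 with MEKi. The 9 skeletal muscle genes had medians between 3.93 and 4.49, and the defining gene Ckm lay between 3.93 and 4.19, near the floor in each array. Of the 9, 1 was lower in both MEKi arrays and 3 were higher, beside 11.0% of all genes that were higher. Those 3 (Acta1, Myh2 and Tnnt3) lay low, between 3.43 and 4.67. Mylpf was brighter, at 4.77 and 5.79 with vehicle and 6.08 and 5.12 with MEKi.

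**Figure D3:**
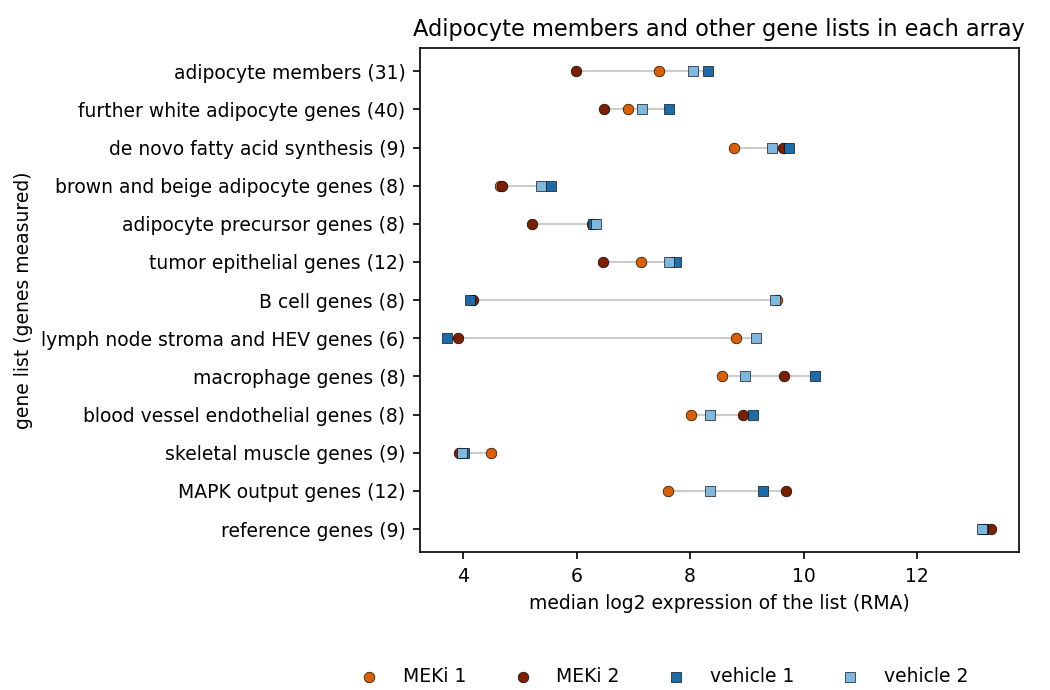
Median log2 expression (RMA, horizontal axis) of the 31 adipocyte genes and of 12 other gene lists (vertical axis, with the number of genes measured) in each array, 1 point per array. HEV stands for high endothelial venule. The adipocyte genes have the vehicle arrays together at 8.05 and 8.32, while B cell genes place MEKi 1 with vehicle 2.

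Hormones secreted by adipocytes were among the genes with the widest range. Adipoq, which encodes adiponectin and is made almost only by adipocytes, read 11.00 and 10.44 with vehicle and 9.77 and 5.99 with MEKi. All arrays were above their 25th percentile, and MEKi 2 was far below the other 3. By limma the log2 difference of Adipoq was −2.84 (SE 1.41, adjusted p = 1), and it was −0.95 without MEKi 2. The MEKi arrays were 3.79 apart, more than the difference between labels. Retn, which encodes resistin, read 9.51 and 9.35 with vehicle and 7.59 and 5.05 with MEKi. Its log2 difference was −3.11 (SE 0.95, adjusted p = 1), and −1.84 without MEKi 2.

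Leptin and retinol-binding protein followed the same order. Lep, the gene of the hormone that reports fat stores to the brain, read 6.58 and 6.31 with vehicle and 5.41 and 3.62 with MEKi. The reading in MEKi 2 lay under the 25th percentile of that array, so its difference of −1.93 (SE 0.68, adjusted p = 1) is limited by the floor, and it was −1.03 without MEKi 2. Rbp4, which encodes the retinol carrier of the blood, read 8.32 and 8.05 with vehicle and 6.64 and 4.90 with MEKi. It differed by −2.41 (SE 0.66, adjusted p = 1), or −1.54 without MEKi 2, and the labels did not overlap. Angptl4, which encodes an inhibitor of lipoprotein lipase that is also made outside fat, went the other way. It read 9.04 and 8.31 with vehicle and 9.02 and 9.92 with MEKi, with MEKi 1 between the vehicle arrays, and its log2 difference was 0.79 (SE 0.45, adjusted p = 1). Without MEKi 2 it was 0.34, without vehicle 2 it was 0.43, and without MEKi 1 it was 1.24.

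The upstream sequence is shown for the 3 genes with the largest differences between labels among those whose promoter the reference table holds, because all of them read lower in both MEKi arrays. Each run is the 250 bases before the RefSeq start of the gene, 5′ to 3′ on its own strand (GRCm38.p6), in lower case with each CCAAT box, read on either strand, in capitals. Thrsp lies at chr7:97417551-97417800 on the minus strand, Retn at chr8:3655520-3655769 on the plus strand and Adipoq at chr16:23146286-23146535 on the plus strand.
Thrsp: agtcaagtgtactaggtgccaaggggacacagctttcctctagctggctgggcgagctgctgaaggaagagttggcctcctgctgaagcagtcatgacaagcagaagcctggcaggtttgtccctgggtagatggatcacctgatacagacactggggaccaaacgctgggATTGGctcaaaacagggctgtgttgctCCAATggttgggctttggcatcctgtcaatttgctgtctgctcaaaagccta
Retn: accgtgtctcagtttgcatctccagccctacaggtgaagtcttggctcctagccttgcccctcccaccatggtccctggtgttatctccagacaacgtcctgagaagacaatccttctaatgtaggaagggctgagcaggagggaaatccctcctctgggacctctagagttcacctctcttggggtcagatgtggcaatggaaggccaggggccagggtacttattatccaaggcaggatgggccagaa
Adipoq: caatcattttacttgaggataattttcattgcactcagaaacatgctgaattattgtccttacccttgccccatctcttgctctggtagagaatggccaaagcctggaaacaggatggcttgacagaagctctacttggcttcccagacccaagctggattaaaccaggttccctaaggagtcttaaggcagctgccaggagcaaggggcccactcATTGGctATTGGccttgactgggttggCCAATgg

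The Adipoq run holds 3 CCAAT boxes, the Thrsp run 2 and the Retn run 0. Promoter windows of 300 bases, with 50 of them after the start, were found for 23 of the 37 listed genes and for 27025 genes in all, and motifs were searched on both strands. The CCAAT box (CCAAT), a motif added after the sequences were seen, was in 8 of 23 adipocyte genes and in 41.1% of all genes. The core of the C/EBP site (TTGCNNAA) was in 5 of 23 (Cidec, Lep, Plin1, Pparg and Rbp4) and in 12.2% of all genes. The TATA box (TATAAA) was in 3 of 23 (Cebpa, Pparg and Rbp4) and in 15.7% of all genes. The PPAR-RXR direct repeat was in 0 of 23 and in 0.451% of all genes, which says only that these letters are not in these windows.

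RNA of lipid droplet proteins was measured for Plin4 and Cidea. Plin4, a perilipin of the droplet coat, read 9.09 and 8.50 with vehicle and 7.67 and 5.73 with MEKi. Its log2 difference was −2.09 (SE 0.76, adjusted p = 1), and −1.12 without MEKi 2. Cidea, a droplet fusion protein best known from brown fat, stayed between 3.90 and 4.45, where differences are hard to read.

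Genes of fat breakdown were lower in both MEKi arrays for all 4 lipases measured, where 10.2% of all genes were, but 1 of the 4 (Pnpla2) was at the floor. Ces1d, a carboxylesterase that hydrolyzes triglyceride, read 7.71 and 6.85 with vehicle and 5.71 and 3.56 with MEKi. The reading in MEKi 2 was under the 25th percentile of that array, and the log2 difference was −2.65 (SE 0.86, adjusted p = 1), or −1.57 without it. Lipe, which encodes hormone-sensitive lipase, read 8.31 and 7.87 with vehicle and 7.50 and 6.42 with MEKi, a difference of −1.13 that was −0.59 without MEKi 2. Mgll, which encodes the monoglyceride lipase of the last step and is found in many tissues, read 8.52 and 8.23 with vehicle and 8.01 in both MEKi arrays, and 1 of its other probe sets had the opposite sign. Pnpla2, the gene of the first lipase of the series (ATGL), lay between 3.57 and 3.88 on its probe set, at the floor, so its level could not be judged here.

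Of 5 genes of fatty acid uptake and binding, 3 were lower in both MEKi arrays (Lpl, Fabp4 and Cd36), where 10.2% of all genes were. Lpl, which encodes lipoprotein lipase, read 11.13 and 10.98 with vehicle and 10.20 and 7.45 with MEKi. Its log2 difference of −2.22 (SE 1.02, adjusted p = 1) became −0.85 without MEKi 2. Fabp4, the fatty acid carrier of adipocytes that is also found in macrophages and capillary endothelium, read 12.68 and 12.62 with vehicle and 11.99 and 10.96 with MEKi, and its 3 probe sets had the same sign. Cd36, a fatty acid receptor that macrophages and vessels carry too, read 10.14 and 9.68 with vehicle and 9.27 and 8.64 with MEKi.

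The related carrier Fabp5, which is abundant in epithelial cells, did not follow Fabp4. It read 12.07 and 12.10 with vehicle and 12.22 and 11.15 with MEKi, so MEKi 1 was the highest array and only MEKi 2 was apart. The log2 difference of Fabp4 was −1.17 (SE 0.41, adjusted p = 1), or −0.66 without MEKi 2, and that of Fabp5 was −0.40 (SE 0.42, adjusted p = 1). Whether the differences of these genes themselves differ was not tested. Aqp7, the glycerol channel of fat cells, lay between 3.89 and 4.13 in every array.

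Of 7 genes of triglyceride synthesis and lipogenesis, 5 were lower in both MEKi arrays, where 10.2% of all genes were. Thrsp, a nuclear protein of lipogenic tissues that responds to thyroid hormone and carbohydrate, read 9.97 and 10.03 with vehicle and 6.77 and 4.68 with MEKi. The gap of 3.21 between the lowest vehicle array and the highest MEKi array was wider than the 2.09 between the MEKi arrays. Its log2 difference was −4.28 (SE 0.78, adjusted p = 1), and −3.24 without MEKi 2. The second Thrsp probe set differed by −2.90. Gpd1, which makes the glycerol phosphate backbone from a glycolysis product, read 7.53 and 7.15 with vehicle and 5.47 and 5.57 with MEKi. The MEKi arrays thus lay 0.10 apart and 1.58 below the vehicle arrays, and the log2 difference was −1.82 (SE 0.21, adjusted p = 1), or −1.87 without MEKi 2. This separation belongs to the brightest of its 4 probe sets. Of the 3 others, 1 near the floor had the opposite sign and 1 overlapped between labels, at 5.04 and 5.89 with vehicle and 5.15 and 4.18 with MEKi, and the difference over the mean of all Gpd1 probe sets was −0.82.

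Such a separation was uncommon on the arrays. A gap between labels wider than the spread within either label, with MEKi lower, was found for 6 of 31 adipocyte genes and for 2.16% of all genes. The 6 were Thrsp, Gpd1 and Dgat2, and at low levels Cidea, Pnpla2 and Acvr1c. With a gap over 1 log2 unit as well, there were 30 such genes on the arrays, of which Thrsp and Gpd1 were 2. Genes outside the 31 met this rule too, among them Adig, Mrap, Pcx and Cox8b of the neighboring lists described below.

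Dgat2, an enzyme of the last step of triglyceride synthesis, read 8.68 and 8.43 with vehicle and 7.45 and 6.70 with MEKi, with a log2 difference of −1.48 (SE 0.33, adjusted p = 1). Dgat1, which catalyzes the same reaction and is expressed widely, read 8.02 in vehicle 1, 0.02 less in vehicle 2, and 8.16 and 7.73 with MEKi, so the vehicle arrays lay between the MEKi arrays. Its log2 difference was −0.07 (SE 0.22, adjusted p = 1). Scd1, the desaturase that makes oleate, read 12.92 and 12.69 with vehicle and 12.34 and 9.71 with MEKi. For Scd1 most of the difference of −1.78 (SE 0.98, adjusted p = 1) lay in MEKi 2, and it was −0.47 without that array. Lpin1, a phosphatidate phosphatase, lay between 6.82 and 7.43. Pck1, an enzyme of glyceroneogenesis, was under the 25th percentile in all arrays.

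**Figure D4:**
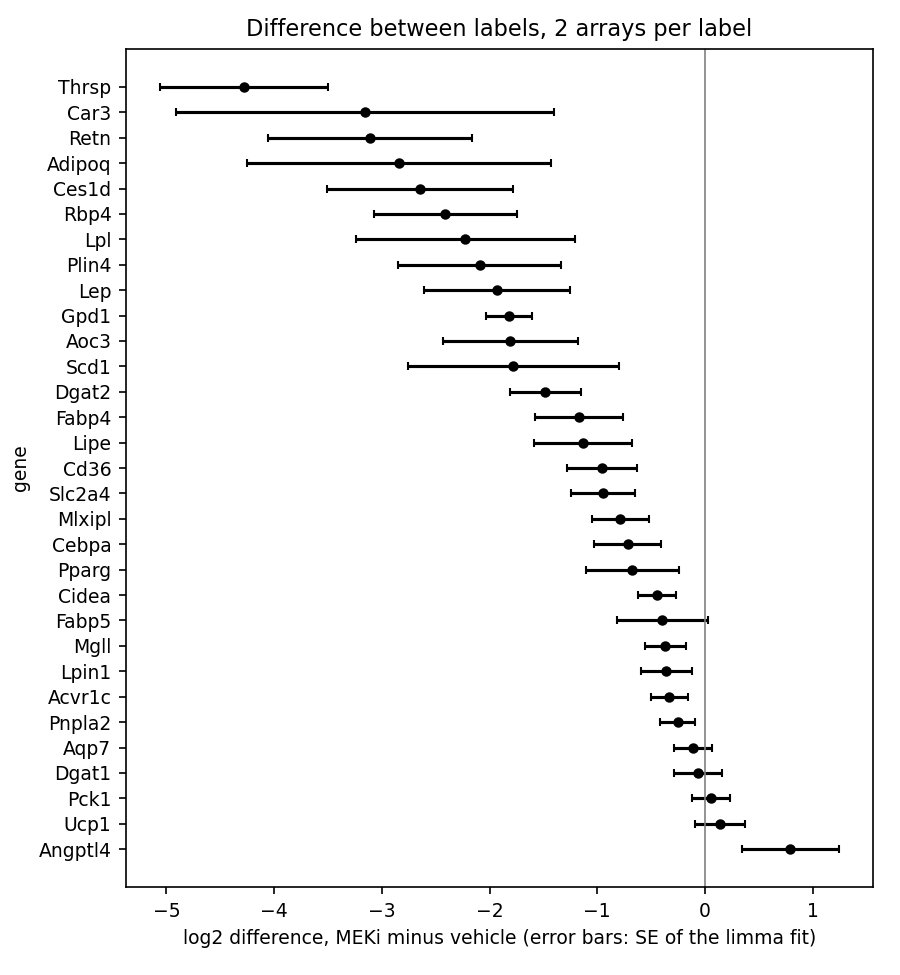
Log2 difference of each adipocyte gene (horizontal axis), MEKi minus vehicle by label, with the SE of the limma fit as error bars and 2 arrays per label. Thrsp is lowest at −4.28, the bars of Gpd1 and Dgat2 are short, those of Car3 and Adipoq are long, and Angptl4 is highest at 0.79.

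The 3 transcription factors of the adipocyte program had a median difference of −0.72, beside −0.95 for the 31 genes. Pparg read 7.15 and 6.38 with vehicle and 5.69 and 6.49 with MEKi, so MEKi 2 lay between the vehicle arrays and MEKi 1 was lowest. Cebpa read 8.80 and 8.31 with vehicle and 8.11 and 7.56 with MEKi, and kept the order of the hormone genes. Mlxipl, which encodes the carbohydrate-responsive factor ChREBP, read 5.38 and 5.53 with vehicle and 4.39 and 4.95 with MEKi. Their log2 differences were −0.67 for Pparg (SE 0.43), −0.72 for Cebpa (SE 0.31) and −0.78 for Mlxipl (SE 0.26), each with an adjusted p of 1 in limma. That of Pparg was −0.27 without MEKi 1, −0.29 without vehicle 1, −1.07 without MEKi 2 and −1.05 without vehicle 2. That of Cebpa was −0.45 without MEKi 2 and −0.47 without vehicle 1, and that of Mlxipl was −0.51 without MEKi 1. When arrays were centred on tumor epithelial genes, all of these differences turned positive, at 0.23, 0.18 and 0.11, below the 0.91 of all genes.

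Among the remaining genes, Car3 had the widest range of the 31. Car3, a carbonic anhydrase abundant in fat and in muscle, read 12.59 and 12.33 with vehicle and 11.69 and 6.92 with MEKi, and all 4 of its probe sets were lowest in MEKi 2. Its log2 difference of −3.16 (SE 1.75, adjusted p = 1) became −0.77 without MEKi 2. Aoc3, an amine oxidase of the adipocyte surface, read 9.02 and 8.52 with vehicle and 7.75 and 6.17 with MEKi. Slc2a4, which encodes the insulin-regulated glucose transporter GLUT4, read 6.25 and 5.98 with vehicle and 5.48 and 4.85 with MEKi. The activin-type receptor gene Acvr1c was under the 25th percentile in all arrays. Ucp1, the uncoupling protein of brown fat, lay between 3.71 and 4.16, and its highest array was MEKi 2.

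Further genes of white adipocytes, from a separate list, ran in both directions. Of 42 listed, 40 were measured, 16 (40.0%) were lower in both MEKi arrays and 2 were higher, against 10.2% and 11.0% of all genes, and the median difference was −0.32. By limma 0 of 40 were called. Adig, which encodes adipogenin, read 5.97 and 5.76 with vehicle and 4.37 and 4.27 with MEKi. Mrap, an accessory protein of melanocortin receptors, read 6.55 and 6.69 with vehicle and 5.40 and 4.30 with MEKi. Sncg, a synuclein, read 8.66 and 7.84 with vehicle and 6.47 and 4.89 with MEKi. Adig, Mrap and Sncg were thus lower in each MEKi array than in each vehicle array. The next gene of the list, Tshr, which encodes the thyrotropin receptor, read 3.49 and 3.52 with vehicle and 3.58 and 3.91 with MEKi, so it was higher in both MEKi arrays but near the floor. The other gene that was higher in both was Fitm1, a fat storage protein of the endoplasmic reticulum, at 5.35 and 5.23 with vehicle and 5.39 and 5.53 with MEKi. The most positive difference of the list (1.13) was that of Cavin2, a caveolar coat gene chosen after its values were seen, which read 10.15 and 9.25 with vehicle and 9.53 and 12.13 with MEKi, with MEKi 1 between the vehicle arrays. Cyp2e1, which was chosen after its values were seen and had the lowest difference of the list (−3.12), read 9.75 and 9.66 with vehicle and 8.89 and 4.28 with MEKi.

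Fatty acid synthesis, brown fat and precursor genes were read as neighbors of the program. Of all genes, 10.2% were lower in both MEKi arrays than in both vehicle arrays. Of 9 measured genes of de novo fatty acid synthesis, 4 (Acaca, Fasn, Acly and Mid1ip1) were lower in both MEKi arrays. Fasn, the fatty acid synthase gene, read 10.81 and 10.71 with vehicle and 9.51 and 10.12 with MEKi, so its lowest array was MEKi 1 where that of Thrsp was MEKi 2. Of 8 brown and beige adipocyte genes, 3 (Elovl3, Cox8b and Ebf2) were lower in both MEKi arrays, with Elovl3 between 3.94 and 4.04. Cox8b read 5.92 and 5.98 with vehicle and 4.41 and 4.22 with MEKi. Of 8 adipocyte precursor genes, 2 (Dlk1 and Pi16) were, and the list's median was 6.29 and 6.34 with vehicle and 6.27 and 5.22 with MEKi. Of the 8, 4 were lowest in MEKi 1 and 3 (Zfp423, Dpp4 and Icam1) in MEKi 2, at 5.18, 4.36 and 8.70. Pdgfra, a receptor gene of precursors and fibroblasts, was instead highest in MEKi 2, at 8.49, against 6.36 in the other MEKi array and 7.69 and 6.09 with vehicle. In limma 0 genes of these lists were called.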

How the data were processed

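Tumor RNA was hybridized to Affymetrix mouse arrays, and the table the authors deposited holds RMA log2 expression per probe set and array, with quantile normalization by the AFFY package in R. No version of RMA or AFFY is given in the sources used here. Of 45141 probe sets, 104 controls were left out and 45037 were tested. The platform annotation pairs 28898 of them with a single symbol. Another 551 carry more than 1 and another 15588 none, and neither kind was named. Symbols were checked against RefSeq genes (GRCm38.p6) by Entrez identifier, which matched 28689 and changed 0.

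All 4 arrays were grouped by label and fitted by lmFit and eBayes of limma 3.58.1 under R 4.3.3, with Benjamini-Hochberg adjustment over all tested probe sets and no filter on dim probe sets. The fit was tested on simulated data. The number of arrays limits the precision. The 31 genes, the 12 other lists and the tests were chosen with earlier results of these data known. Every measured gene of the adipocyte list is given, and from some of the other lists the first genes in listed order. Further genes of the other lists, such as those behind small counts, were named after their values were seen. From the macrophage and vessel lists only genes lower in both MEKi arrays are named. The fit was repeated without moderation, with an intensity trend, at an adjusted p of 0.05, without the dimmest 0.25 of probe sets, and with arrays centred on reference or on tumor epithelial genes. Further alternatives were the replicate block, each array left out in turn and the mean of a gene's probe sets. Of the 31 genes, 27 passed the filter on dim probe sets. Python 3.11.15 with pandas 2.3.3 and matplotlib 3.10.9 made the tables and figures.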

Additional observations from a re-analysis of the deposited data

How the results depend on the processing

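Each fit called 0 probe sets and 0 adipocyte genes, except that centred on tumor epithelial genes, which called 20 probe sets (19 higher and 1 lower) and 1 adipocyte gene, Thrsp (−3.38, adjusted p = 0.00233 in limma). This centring moved the median difference of all genes to 0.91 and that of the 31 genes to −0.053, with 13 of them lower in both MEKi arrays, and turned the sign of Cidea (0.45), Pnpla2 (0.65), Mgll (0.53), Fabp5 (0.50), Aqp7 (0.79), Lpin1 (0.54), Dgat1 (0.83), Pparg (0.23), Cebpa (0.18), Mlxipl (0.11) and Acvr1c (0.57). Centring on reference genes moved all genes to −0.09, the 31 genes to −1.05 and Pck1 to −0.0405. Leaving out each array in turn gave a median difference of the 31 genes between −1.27 and −0.64, and turned the sign of Fabp5 (−0.93 to 0.14), Dgat1 (−0.28 to 0.15), Pck1 (−0.052 to 0.17) and Ucp1 (−0.087 to 0.36). With the replicate number as a block, 0 probe sets were called and the median difference was −0.95. The labels do not say that the numbers pair arrays. Deviations of same-numbered arrays correlated at −0.76 across probe sets, which with 2 arrays per label cannot decide whether they do. A crossed pairing of MEKi 1 with vehicle 2, chosen after seeing the data, called 0 probe sets. At an unadjusted p under 0.05 the alternatives had between 80 and 2027 probe sets. The epithelial centring shifts all genes alike, and under the other alternatives run 27 of 31 genes kept their sign, the exceptions being Fabp5, Dgat1, Pck1 and Ucp1.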
